A study of Homo sapiens with 6 samples.

Results

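A549 cells that had received 5 ng/mL TGF-β1 were compared with untreated A549 cells at 48 h, using 2 of the 6 transcriptome libraries of the series and all 25737 of its 25737 gene entries. A549 is an established human lung adenocarcinoma line with features of alveolar type II epithelium, and the remaining libraries came from A549 cells at 1 ng/mL and from BEAS-2B, an immortalized bronchial epithelial line, at 0, 1 and 5 ng/mL. Recombinant TGF-β1 was given in medium with 1% FBS, whereas growth medium held 10% FBS. The serum in the control medium is not given in the sources used here, and its part in the results was not tested. Each condition was a single library, so that no difference below has a replicate check and no p-value is given.

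The libraries hold reads from the 3′ ends of polyadenylated transcripts, counted per gene symbol. They summed to 4144476 counts in the control and 6101351 counts at 5 ng/mL. Counts were scaled with TMM factors to the mean size of the 6 libraries, and the scaled value is called the normalized count. ND stands for log2(normalized count + 1). Differentially expressed genes (DEGs) had a fold change (FC) of 2 or more in either direction and an ND of 7 or more in 1 or both libraries, a minimum that equals 127 normalized counts. Intervals around fold differences are exact 95% Clopper-Pearson intervals of the ratio of counts and cover counting error only. Where a library held 0 counts, the fold is a lower bound against the 3 counts that a count of 0 in 1 library allows.

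TGF-β1 binds a pair of serine/threonine kinase receptors, and the active receptor phosphorylates SMAD2 and SMAD3, which enter the nucleus with SMAD4 and change transcription. In epithelial cells the cytokine is known for epithelial–mesenchymal transition (EMT), in which junctional cadherins give way to matrix receptors and contractile proteins. A549 cells carry a mutation in KEAP1, the adaptor that marks NRF2 for degradation. Targets of NRF2, a transcription factor of the antioxidant response, are therefore abundant in untreated cells of this line.

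Marker genes were compared with the label of the cells. The cyclin-dependent kinase inhibitor genes CDKN2A and CDKN2B, which are deleted in A549 cells, had 0 counts in both libraries. The 5 markers that are high in this line, among them NQO1, AKR1B10, AKR1C1 and ALDH1A1, summed to 35454 counts in the control and 10890 at 5 ng/mL. The 6 epithelial markers summed to 24907 and 30813 counts. Scaled to the total of each library as CPM, these sums were 6009.7 in the control and 5050.2 at 5 ng/mL, thus lower. The members differed in direction. KRT18, keratin 18, was not a DEG as reported, with 14592 and 9719 counts, but lay at -1.17 on the log2 FC scale in an alternative. KRT7 had 3473 and 19283 counts. The others were lower at 5 ng/mL: KRT8 had 6112 and 1792 counts, KRT19 had 41 and 9, the surface adhesion marker EPCAM had 49 and 2, and CDH1, which encodes E-cadherin, had 640 and 8. Of 5 immune markers only CD14 exceeded 1 count, at 57 and 14 counts. The 5 endothelial markers summed to 0 and 1 count, and the 8 fibroblast markers to 34 and 70 counts, of which COL3A1 held 16 and 40. As CPM the fibroblast sums were 8.20 in the control and 11.5 at 5 ng/mL. In bulk libraries, fewer cells of a type and less RNA per cell cannot be told apart, and the part of other cells in the results was not tested.

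Of the 7115 genes that reached the minimum, 1146 were higher at 5 ng/mL (16.1%) and 1220 were lower (17.1%). In the control, 495 of the higher DEGs lay under the minimum, and 772 of the lower DEGs lay under it at 5 ng/mL. A gene that reached the minimum through 1 library only is far more likely to pass the FC limit, and among the 5093 genes that reached it in both libraries 651 were higher and 448 lower. The median log2 FC of the 7115 genes was 0.11. Scaling by total counts in place of TMM factors gave 798 higher and 1564 lower DEGs and a median of -0.14, so that 33.8% of DEGs were higher instead of 48.4%. Genes are grouped below in lists by function. A median in parentheses after the count of a list is the median log2 FC of its members that reached the minimum, to be set against 0.11 over all genes, as rises and falls are to be set against 16.1% and 17.1%. Rises and falls given with the minimum in both libraries are to be set against 651 and 448 of 5093 genes instead.

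**Figure D1:**
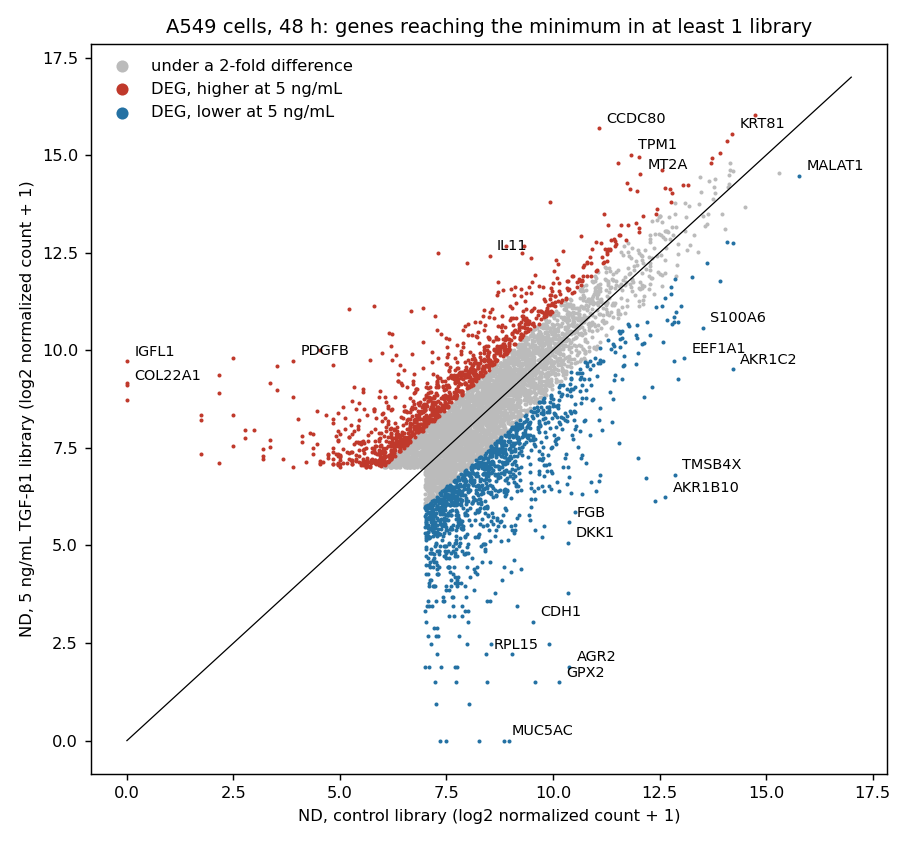
Each point is a gene that reached the minimum, with its ND in the control library on the x axis and at 5 ng/mL on the y axis. Red points are the 1146 higher DEGs, blue points the 1220 lower DEGs, grey points the remaining genes, and the line marks equal values; MUC5AC lies at 0 in the treated library and IGFL1 at 0 in the control.

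The 15 largest falls by log2 FC came from genes of several kinds. RTN4RL2, which encodes a Nogo receptor homolog, went from 496 to 0 normalized counts, at least 182-fold lower. The gel-forming airway mucin gene MUC5AC went from 462 to 0, at least 169.8-fold lower. AGR2, a protein disulfide isomerase needed for mucin folding, went from 1337 to 2.72 and was 491-fold (interval 168 to 2386) lower. LCN2, which encodes the siderophore-binding protein lipocalin 2, went from 305 to 0, at least 112-fold lower. These genes were close to silent at 5 ng/mL, where MUC5AC, LCN2 and RTN4RL2 had 0 counts and AGR2 had 3.

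The same range held further surface and lipid genes. CEACAM6, a cell adhesion molecule of the carcinoembryonic antigen family, went from 767 to 1.81 normalized counts and was 423-fold (interval 117 to 3498) lower. FA2H, the fatty acid 2-hydroxylase of sphingolipid synthesis, went from 178 to 0, at least 65.6-fold lower. The tetraspanin gene CD9 went from 964 to 4.54, 212-fold (interval 90.7 to 656) lower. The water and glycerol channel gene AQP3 went from 161 to 0, at least 59.2-fold lower. Lower by over 100-fold were also RBFOX3 (a splicing regulator best known from neurons), S100P, PKDCC (a secreted tyrosine kinase), TM4SF20 and CDH1. CDH1 went from 742 to 7.26, 102-fold (interval 51.5 to 238) lower. RBFOX3 and S100P held 1 and 2 counts at 5 ng/mL, so that their ratios have intervals of 50.6 to 11298-fold and 53.1 to 1605-fold.

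Among the largest rises were secreted factors and proteins of muscle and skin. IGFL1, a small secreted protein of the IGF-like family, went from 0 to 840.1 normalized counts, at least 242-fold higher. Its family members IGFL3 and IGFL2 went from 2.32 to 327 and from 8.11 to 155, and IGFL3 was 141-fold (interval 38.7 to 1168) higher. The late cornified envelope genes LCE3D and LCE3E went from 0 to 573 and from 0 to 420.1, at least 165-fold and at least 121-fold higher. These genes are close paralogs, and the counting can divide their reads between them. Of 46 cornified envelope genes only 3 reached the minimum, and the third, CNFN, was at 289.6 and 297.

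COL22A1, a collagen of tissue junctions, was not detected in the control and reached 553 normalized counts, at least 159-fold higher. VSTM4, an immunoglobulin-domain membrane protein, went from 3.48 to 656, 189-fold (interval 64.3 to 917) higher. KANK4, an adaptor between focal adhesions and the cell cortex, went from 3.48 to 476, 137-fold (interval 46.6 to 667) higher. SLN, which encodes the calcium pump inhibitor sarcolipin of striated muscle, went from 2.32 to 298, 128-fold (interval 35.3 to 1065) higher. All had between 0 and 3 counts in the control.

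The largest changes in abundance fell on other genes. CCDC80, a secreted matrix-associated protein, went from 2163 to 52958 normalized counts, 24.5-fold (interval 23.4 to 25.7) higher, and BEAS-2B cells at 5 ng/mL had a value of -0.71 on the log2 FC scale. TPM1, the actin-binding tropomyosin 1, went from 3642 to 33013, 9.07-fold (interval 8.74 to 9.41) higher. TGFBI, a matrix protein named for its induction by TGF-β, went from 4154 to 31744, 7.64-fold (interval 7.38 to 7.91) higher. The early response gene IER3 went from 2956 to 28562, 9.66-fold (interval 9.28 to 10.1) higher. The hair keratin gene KRT81 went from 18918 to 47954, with a log2 FC of 1.34 that became 0.76 once the trend over GC content was removed. On the other side, the nuclear noncoding RNA MALAT1 went from 56222 to 22772, 2.47-fold (interval 2.43 to 2.51) lower.

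Genes of the NRF2 antioxidant and detoxification response held many falls. Of 51 listed genes 41 reached the minimum, of which 27 fell (65.9%, against 17.1% of all genes), 2 rose and 12 were neither. Of the 32 that reached it in both libraries, 18 fell and 2 rose. Their median log2 FC was -1.90, beside 0.11 over all genes. Together the listed genes took 3.52% of all counts in the control and 1.30% at 5 ng/mL. The list is one of those put together with earlier results of these data known.

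A site of the antioxidant response element type, to which NRF2 binds as a dimer with a small MAF protein, is shown for members with different outcomes. The core letters TGACNNNGC were searched on both strands of RefSeq promoter windows (GRCh38.p14), which run from 250 bases before to 50 bases after a gene start. They were present in 855 of 5506 promoters of tested genes (15.5%) and in 8 of 30 promoters of list members (26.7%). Among higher and lower DEGs the shares were 13.96% and 15.1%. Capitals mark the match, and lower-case letters its surroundings, 5′ to 3′ on the strand of the gene.
GPX2: cctgtttttGCTAAGTCAtcctggggat
GCLM: acgatttctGCTTAGTCAttgtcttcca
CBR1: gcgggttctGCAAAGTCAggctagctgg
GSTP1: ccggcgccgTGACTCAGCactggggcgg
The GPX2 stretch lies at chr14:64942849-64942876 on the minus strand, with its match starting 122 bases before the gene start. That of GCLM lies at chr1:93909446-93909473 on the minus strand, 34 bases before the start. CBR1 has its stretch at chr21:36069856-36069883 on the plus strand, 159 bases before the start. For GSTP1 it lies at chr11:67583737-67583764 on the plus strand, 66 bases before the start. The first 3 matches read as the reverse complement of the letters searched, and the GSTP1 match also holds TGANTCA, the form bound by AP-1. All 4 are in upstream sequence, and a match does not show binding.

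These 4 genes with the same letters had different values. GPX2, the glutathione peroxidase of epithelia, went from 1127 to 1.81 normalized counts, 621-fold (interval 172 to 5137) lower. GCLM, the regulatory subunit of the enzyme that starts glutathione synthesis, went from 708 to 400.1, 1.77-fold (interval 1.56 to 2.004) lower, and thus missed the FC limit. The carbonyl reductase gene CBR1 went from 1249 to 684, 1.83-fold (interval 1.66 to 2.01) lower. GSTP1, a glutathione S-transferase, went from 5791 to 11203, 1.93-fold higher. Only GPX2 of these 4 was a DEG as reported. In an alternative, GCLM and CBR1 lay at -1.03 and -1.07 on the log2 FC scale. The 4 were picked from the 8 list members with the letters. Of the remaining members, TXNRD1 and PGD were DEGs, with log2 FC values of -2.57 and -1.09. ME1 and PIR are not reported here.

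Aldo-keto reductases, which reduce aldehydes, ketones and steroids, held several of the largest falls of the list. AKR1B10 went from 6352 to 74.4 normalized counts, 85.4-fold (interval 68.7 to 108) lower. AKR1C1 went from 5397 to 69.9, 77.3-fold (interval 61.7 to 98.1) lower, and AKR1C2 went from 19050 to 733, 25.99-fold (interval 24.2 to 27.9) lower. AKR1C3, which also makes prostaglandin F2, went from 6143 to 1195, 5.14-fold (interval 4.84 to 5.46) lower. The AKR1C genes are near-identical copies, so that the division of reads among them is uncertain, but every one of them was lower. AKR1B1, a less similar relative, went from 6538 to 1765, 3.71-fold (interval 3.52 to 3.90) lower. Of other enzymes that remove aldehydes and alkenals, ALDH3A1 was 44.3-fold (interval 36.8 to 53.7) lower and PTGR1 8.16-fold (interval 7.14 to 9.35).

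The thioredoxin and NADPH branches were also lower. TXNRD1, thioredoxin reductase, went from 2185 to 367 normalized counts, 5.95-fold (interval 5.34 to 6.64) lower. Its substrate gene TXN went from 2599 to 489.9, 5.30-fold (interval 4.83 to 5.84) lower, and GSR, glutathione reductase, went from 1111 to 215, 5.17-fold (interval 4.48 to 5.98) lower. NQO1, the quinone reductase used as the standard readout of NRF2, went from 7790.4 to 1687, 4.62-fold (interval 4.39 to 4.87) lower. PGD, an NADPH-forming enzyme of the pentose phosphate pathway, was 2.13-fold lower. TALDO1 and TKT, of the later steps of that pathway, were not DEGs, with 1723 and 1404 and with 5602 and 5432 normalized counts.

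Drug export and iron genes completed the list. The exporters ABCC1, ABCC2, ABCC3 and ABCG2 were 10.7-fold, 7.53-fold, 4.54-fold and 13.6-fold lower. FTH1, the ferritin heavy chain, went from 15608 to 3520.2 normalized counts, 4.43-fold (interval 4.28 to 4.60) lower; it has many processed copies, and BEST1 overlaps it on the opposite strand. Of the pathway's own regulators, NFE2L2, which encodes NRF2, went from 472 to 249.5, and KEAP1 went from 232 to 257, neither past the FC limit. In an alternative NFE2L2 passed it, at -1.12 on the log2 FC scale. MAFG, which encodes a small MAF protein, had a log2 FC of -1.64, and SIRT7 overlaps it on the same strand. The exceptions were HMOX1, heme oxygenase 1, which rose from 697 to 1723, 2.47-fold (interval 2.25 to 2.71), and PRDX1, a peroxiredoxin, which rose from 5474 to 11618, 2.12-fold (interval 2.05 to 2.19). With the GC trend removed, the log2 FC of HMOX1 was 0.81, and with scaling by total counts that of PRDX1 was 0.88.

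**Figure D2:**
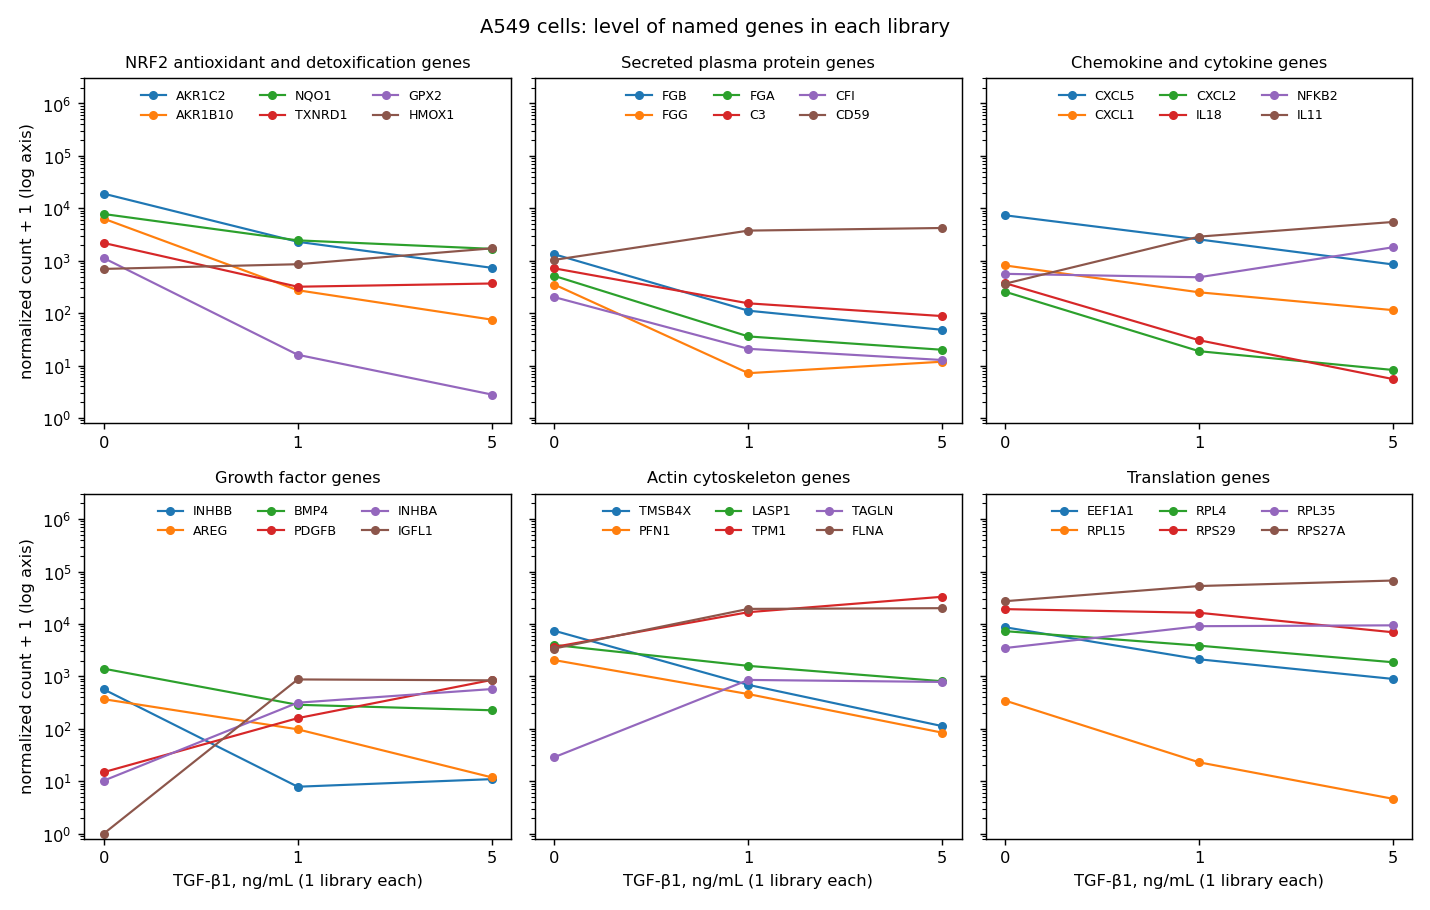
Normalized counts plus 1 on a log axis for named genes in the A549 libraries at 0, 1 and 5 ng/mL, with 1 library at each dose and lines joining the values of a gene. AKR1C2 fell from 19050 in the control over 2301 at 1 ng/mL to 733 at 5 ng/mL, and PDGFB rose from 13.9 over 159 to 854; both doses share the control.

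Most airway secretory and lung lineage genes that were counted were high in the control alone. Of 47 listed genes 14 reached the minimum, of which 10 fell and 2 rose, with a median log2 FC of -3.33. Only 5 reached it in both libraries, of which 2 fell and 1 rose, so that most falls are of genes that passed the minimum through the control. Beside MUC5AC and AGR2, the mucin gene MUC5B went from 253 to 4.54 normalized counts, 55.7-fold (interval 23.5 to 173) lower. SLPI, the secretory leukocyte protease inhibitor, went from 214 to 2.72, 78.8-fold (interval 26.5 to 385) lower. GCNT3, which branches mucin glycans, was 11.5-fold (interval 8.92 to 14.9) lower. Of transcription factor genes, FOXA2 went from 790.2 to 350.2 and HNF4A went from 311 to 153, 2.26-fold and 2.03-fold lower. Both lay under the FC limit in an alternative, at -0.95 and -0.94 on the log2 FC scale. ABCA3, the lipid pump of lamellar bodies, was 2.11-fold (interval 1.60 to 2.81) higher, but only 0.57 on the log2 FC scale with the GC trend removed, and the surfactant protein genes did not reach the minimum. ERN2, an endoplasmic reticulum (ER) stress sensor of mucous cells, went from 533 to 1616, but PLK1 overlaps it on the opposite strand and rose too, although by under 2-fold once the GC trend of the last 500 bases was removed.

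A549 cells also make plasma proteins of the liver type, and most of these were high in the control alone. Of 22 fibrinogen, complement and antiprotease genes that reached the minimum, 19 fell (86.4%, against 17.1% of all genes), with a median log2 FC of -3.12. Only 4 reached it in both libraries, of which 1 fell and 1 rose, so that nearly all falls are of genes that passed the minimum through the control. The 3 chains of the clotting protein fibrinogen, FGA, FGB and FGG, went from 513 to 19.1, from 1329 to 47.2 and from 351 to 10.9 normalized counts. They were 26.9-fold (interval 17.4 to 43.96), 28.2-fold (interval 21.3 to 37.9) and 32.2-fold (interval 18.2 to 63.1) lower. In the complement system, the central component C3 went from 716 to 87.1, 8.22-fold (interval 6.62 to 10.3) lower. C5 was 9.93-fold lower, factor B (CFB) 23.2-fold and the regulator CFI 17.1-fold.

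Regulators of coagulation and of fibrinolysis followed the same direction. TFPI, the tissue factor pathway inhibitor, went from 468 to 86.2 normalized counts, 5.43-fold (interval 4.33 to 6.86) lower, and PROS1, protein S, was 6.69-fold (interval 4.34 to 10.7) lower. PLAU, the urokinase that activates plasminogen, went from 285 to 19.1, 14.96-fold (interval 9.57 to 24.6) lower, while its receptor PLAUR was at 633 and 515. The complement shields of the cell surface moved apart: CD46 and CD55 were 3.54-fold and 2.15-fold lower (CD55 -0.88 on the log2 FC scale with the GC trend removed), whereas CD59, which blocks the membrane attack complex, went from 1038 to 4214, 4.06-fold (interval 3.78 to 4.37) higher. CD59 was the only member that rose.

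Chemokine and acute inflammatory genes differed in both directions. Of 22 that reached the minimum, 15 fell and 5 rose, with a median log2 FC of -1.85. Among the 10 that reached it in both libraries, 4 fell and 4 rose. IL18, an inflammasome-processed cytokine, went from 373 to 4.54 normalized counts, 82.2-fold (interval 34.9 to 255) lower. The neutrophil chemokines CXCL1, CXCL2, CXCL3 and CXCL5 were 7.17-fold, 35.3-fold, 21.1-fold and 8.67-fold lower, and CXCL5 went from 7366 to 849. CXCL8 was 2.42-fold (interval 1.85 to 3.18) lower, with -0.98 on the log2 FC scale when the GC trend of the last 500 bases was removed. Several of these genes are known targets of NF-κB, of which some subunits went the other way: NFKB2 went from 562 to 1807 and RELB from 205 to 636, 3.22-fold and 3.10-fold higher. With a GC trend removed, NFKB2 was as low as 0.77 and RELB 0.91 on the log2 FC scale, under the FC limit. The inhibitor gene NFKBIA was 2.002-fold (interval 1.83 to 2.20) lower, at the FC limit, and lay under it in several alternatives. IL11, a cytokine of the interleukin 6 family known from fibrosis, went from 364 to 5494, 15.1-fold (interval 13.5 to 16.97) higher. The cytokine gene IL32 was 4.50-fold (interval 3.60 to 5.67) higher.

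In prostaglandin synthesis, 6 of 10 genes fell and 1 rose (median -1.44), or 4 and 1 of the 7 that reached the minimum in both libraries. PLA2G4A, the phospholipase that frees arachidonic acid, went from 216 to 14.5 normalized counts, 14.8-fold (interval 8.90 to 26.5) lower. PTGS2, cyclooxygenase 2, went from 993 to 119, 8.35-fold (interval 6.94 to 10.1) lower. PTGES, the next enzyme toward prostaglandin E2, went from 1943 to 6228, 3.21-fold (interval 3.04 to 3.38) higher, while BEAS-2B cells at this dose had -2.06 on the log2 FC scale. HPGD, which inactivates prostaglandins, was 2.24-fold (interval 1.85 to 2.73) lower, or -0.93 on the log2 FC scale with the GC trend removed. The pathway thus held members that differed in both directions.

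Interferon-stimulated genes and genes of major histocompatibility complex (MHC) class I presentation held no member that rose. Of 13 interferon-stimulated genes that reached the minimum 6 fell, with a median log2 FC of -0.83, and of 8 that reached it in both libraries 4 fell. OAS1, an antiviral RNA sensor, was 6.88-fold (interval 4.80 to 10.1) lower, and IFI6 4.17-fold (interval 3.58 to 4.87). PARP9, EIF2AK2 and IFITM2, an antiviral kinase and membrane protein among them, were 4.02-fold, 2.86-fold and 2.81-fold lower. Of 13 presentation genes 5 fell (median -0.50), or 2 of 10 with the minimum in both libraries. The immunoproteasome gene PSMB8 went from 152 to 5.44 normalized counts, 27.9-fold (interval 12.5 to 77.4) lower, the peptide trimming enzyme ERAP1 was 5.49-fold (interval 4.22 to 7.23) lower and the peptide transporter TAP2 4.35-fold (interval 3.26 to 5.87). The class I heavy chain gene HLA-B was 2.33-fold lower, while B2M, the light chain, was at 2089 and 1481.

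Growth factor genes and their receptors divided into rises and falls. Of 39 that reached the minimum, 17 rose (43.6%, against 16.1% of all genes) and 10 fell (25.6%), with a median log2 FC of 0.43. With the minimum in both libraries, 7 rose and 3 fell among 21. Within the TGF-β superfamily, the subunit genes of activin and inhibin differed in direction: INHBA, the βA subunit, went from 9.27 to 572 normalized counts, 61.8-fold (interval 31.2 to 144) higher, while INHBB, the βB subunit, went from 567 to 9.98, 56.8-fold (interval 31.4 to 114) lower. Likewise BMP2 went from 38.2 to 418, 10.9-fold (interval 7.68 to 16.1) higher, and BMP4 went from 1404 to 225, 6.24-fold (interval 5.44 to 7.18) lower. GDF15, a stress-induced member, was 6.51-fold (interval 5.71 to 7.45) lower.

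The epidermal growth factor family showed the same division. The ligands AREG and EREG went from 367 to 10.9 and from 193 to 14.5 normalized counts, 33.7-fold and 13.3-fold lower. The ligands HBEGF and NRG1 went from 17.4 to 141 and from 206 to 721, 8.09-fold and 3.50-fold higher. Of their receptors, EGFR went from 509 to 1744, 3.43-fold (interval 3.09 to 3.81) higher, ERBB3 went from 200.4 to 9.98, 20.1-fold (interval 10.9 to 40.98) lower, and ERBB2 was at 148 and 149. For the platelet-derived growth factors, which drive mesenchymal cells, PDGFB went from 13.9 to 854, 61.4-fold (interval 34.99 to 119) higher, and PDGFA and PDGFC were 2.20-fold and 4.90-fold higher, PDGFA with 0.93 on the log2 FC scale under scaling by total counts. Their receptors PDGFRA and PDGFRB had at most 8 counts.

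In the insulin-like growth factor system, IGFBP3 and IGFBP1, which bind the ligands in serum, went from 1901 to 97.98 and from 366 to 22.7 normalized counts, 19.4-fold and 16.1-fold lower. IGFBP5, known from fibrosis, went from 2.32 to 161, 69.7-fold (interval 19.01 to 579.9) higher, with 2 counts in the control. The receptor genes INSR and IGF2R were 5.33-fold and 3.86-fold lower, while IGF1R was at 824 and 781. VEGFA, the endothelial growth factor, was 3.16-fold (interval 2.61 to 3.86) higher.

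TGF-β feedback genes included 9 rises and 2 falls among 24, with a median log2 FC of 0.58. With the minimum in both libraries, 6 rose and 1 fell among 16. The receptors moved in opposite directions: TGFBR1, the signaling kinase, went from 177 to 1282 normalized counts, 7.23-fold (interval 6.12 to 8.60) higher, and TGFBR2, the ligand-binding kinase, went from 395 to 112, 3.54-fold (interval 2.87 to 4.39) lower. Latent binding proteins, which hold the ligand in the matrix, rose in LTBP2, LTBP3 and LTBP4, by 2.33-fold, 5.90-fold and 4.68-fold, though LTBP2 had a log2 FC of 0.87 with the GC trend removed. TGFB1, the ligand itself, went from 107 to 678, 6.36-fold (interval 5.11 to 7.98) higher, and PMEPA1, which binds SMAD proteins, was 5.01-fold (interval 4.83 to 5.21) higher. ID1, a target of BMP signaling, was 2.70-fold (interval 2.49 to 2.92) lower. Of 7 EMT transcription factors 5 rose and 0 fell (median 1.08), led by RUNX1, which was 6.62-fold (interval 4.80 to 9.35) higher. With the minimum in both libraries, 4 of 6 rose. ETS2, SOX4 and TCF4 were 3.51-fold, 2.35-fold and 2.12-fold higher. ZEB1, the repressor of CDH1, went from 156 to 325, 2.08-fold (interval 1.70 to 2.55) higher, and under scaling by total counts ZEB1 and TCF4 lay under the FC limit, at 0.85 and 0.87 on the log2 FC scale. SNAI1, SNAI2 and the TWIST genes did not reach the minimum.

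Matrix genes beyond the 8 core genes of the study were more often higher than lower. Of 24 that reached the minimum, 13 rose (54.2%, against 16.1% of all genes) and 1 fell, with a median log2 FC of 1.17. With the minimum in both libraries, 7 rose and 1 fell among 17. SPOCK1, a secreted proteoglycan, went from 35.9 to 2145 normalized counts, 59.7-fold (interval 41.95 to 88.1) higher. The laminin chain gene LAMA5 was at 821 and 491 and LAMB1 at 1937 and 1439. ADAM19, a membrane-bound metalloproteinase, went from 74.2 to 1379, 18.6-fold (interval 14.5 to 24.3) higher. COL7A1, the anchoring fibril collagen, was 7.02-fold higher, COL6A2 6.09-fold, and BMP1, the procollagen C-proteinase, 5.70-fold. PLOD2, a collagen lysyl hydroxylase, was the one member that fell, from 729 to 319, with a log2 FC of -0.94 once the GC trend was removed. With the GC trend removed, the median of the list was 0.70, and 10 members instead of 13 lay at or above a 2-fold rise. There was then still 1 member at or below a 2-fold fall, and LAMA5 had a log2 FC of -1.46.

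Among integrins, the matrix receptors, 5 of 9 rose and 0 fell (median 1.22), or 4 and 0 of 7 with the minimum in both libraries. ITGA11, a collagen receptor of fibroblasts, went from 4.63 to 324 normalized counts, 69.9-fold (interval 27.1 to 258) higher. ITGAV, whose dimers release latent TGF-β, went from 214 to 662, 3.09-fold (interval 2.63 to 3.65) higher, and ITGA2 was 2.73-fold (interval 2.32 to 3.21) higher. ITGB1, the common partner, was at 4992 and 7044. The rises of ITGA3 and ITGB4 had log2 FC values of 1.44 and 1.22, which became 0.86 and 0.64 with the GC trend removed. After that removal, 3 integrin genes lay at or above a 2-fold rise and 1 at or below a 2-fold fall.

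In the list of epithelial junction and splicing genes, 7 of 15 fell and 1 rose (median -0.94). With the minimum in both libraries, 4 fell and 1 rose among 12. The epithelial transcription factor ELF3 went from 1328 to 106 normalized counts, 12.5-fold (interval 10.3 to 15.3) lower. SPINT2, an inhibitor of membrane serine proteases, was 10.7-fold (interval 9.10 to 12.7) lower and the tight junction protein CLDN1 4.81-fold (interval 3.70 to 6.32). Desmosomal and tight junction scaffolds differed, since JUP was 3.74-fold (interval 3.27 to 4.30) lower while DSP and TJP1 were at 1595 and 1776 and at 636 and 1043. The keratins diverged as well: KRT8 went from 7081 to 1626 and KRT7 went from 4024 to 17495, 4.36-fold lower and 4.35-fold higher. KRT8 has many processed copies, and KRT18 overlaps it on the opposite strand, which makes its count uncertain.

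Actin cytoskeleton and focal adhesion genes changed in both directions. Of 64 that reached the minimum 17 rose and 15 fell (26.6% and 23.4%), with a median log2 FC of 0.14. Among the 57 that reached it in both libraries, 14 rose and 12 fell. Among the rises were contractile and crosslinking proteins. TAGLN, a smooth muscle actin binder, went from 27.8 to 783 normalized counts, 28.2-fold (interval 18.8 to 44.2) higher, and FLNA, filamin A, went from 3402 to 20003, 5.88-fold (interval 5.66 to 6.11) higher. PDLIM7 was 9.58-fold (interval 7.86 to 11.8) higher and ACTB, β-actin itself, 2.62-fold (interval 2.55 to 2.70).

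Among the falls were proteins that bind actin monomers or cap filaments. TMSB4X, thymosin β4, went from 7421 to 112 normalized counts, 66.5-fold (interval 55.6 to 80.1) lower. PFN1, profilin 1, went from 2044 to 83.5, 24.5-fold (interval 19.8 to 30.5) lower, and PFN2 was 5.72-fold (interval 4.83 to 6.81) lower. The capping protein subunit CAPZB went from 3139 to 619, 5.07-fold (interval 4.66 to 5.52) lower. In BEAS-2B cells at 5 ng/mL, against the control of that line, TMSB4X, PFN1 and CAPZB had log2 FC values of -3.64, -3.32 and -2.01. TMSB4X and PFN1 have processed copies. ACTN4 went from 12501 to 4868, and CAPN12, which overlaps it on the opposite strand, was lower too.

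Translation genes held large changes within a list whose median was near that of all genes. All 79 of 79 cytosolic ribosomal protein genes reached the minimum, of which 12 rose and 13 fell (15.2% and 16.5%, against 16.1% and 17.1%), with a median log2 FC of 0.24. RPL15 went from 345 to 3.63 normalized counts, 95.1-fold (interval 36.8 to 351) lower, while BEAS-2B cells at this dose had 0.82 on the log2 FC scale. RPL4, RPL34 and RPS29 were 3.92-fold, 3.71-fold and 2.76-fold lower. RPL36A and RPL35 were 2.75-fold and 2.71-fold higher (RPL35 0.86 on the log2 FC scale with the GC trend removed), and RPS27A went from 27172 to 67346, 2.48-fold (interval 2.44 to 2.52) higher. Most protein products of these genes enter the ribosome in equal number. Processed copies of most of the genes lie in the genome, so that reads can be shared or lost in ways these counts do not show. The part of such reads in these values was not tested.

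Translation factors gave 5 rises and 4 falls among 39 (median 0.15). EEF1A1, which delivers aminoacyl-tRNA to the ribosome and has many processed copies, went from 8657 to 894 normalized counts, 9.69-fold (interval 9.06 to 10.4) lower. The initiation factor subunits EIF3M and EIF3H were 5.60-fold and 2.69-fold lower, and EIF4H 4.73-fold. EIF3G and EEF1D had log2 FC values of 1.26 and 1.24, which became 0.76 and 0.74 with the GC trend removed. Ribosome biogenesis genes gave 4 rises and 6 falls among 42 (median -0.32), with NOP10, of the RNA pseudouridylation complex, 10.6-fold (interval 8.41 to 13.6) lower.

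Nuclear-encoded mitochondrial genes formed 2 lists. Of 74 respiratory chain genes 18 fell and 1 rose (24.3% and 1.35%), with a median log2 FC of -0.31. NDUFB3, of complex I, went from 546 to 39.01 normalized counts, 13.99-fold (interval 10.2 to 19.6) lower. SDHB and SDHC, of complex II, were 6.60-fold (interval 4.72 to 9.41) and 5.54-fold (interval 4.75 to 6.49) lower. Of 67 mitochondrial ribosomal protein genes 17 fell and 2 rose (25.4% and 2.99%), with a median log2 FC of -0.20. MRPS28, MRPL13 and MRPL32 went from 143 to 9.98, from 438 to 48.1 and from 239.8 to 26.3. MRPL36 and MRPL34 were 6.32-fold and 6.39-fold lower, MRPL42 4.61-fold, and in the respiratory chain ATP5C1, of the ATP synthase, 5.15-fold, NDUFC1 5.07-fold and NDUFB5 5.01-fold. With the GC trend removed, the falls numbered 18 among the 60 respiratory genes with a known GC content and 17 among 67 mitochondrial ribosomal genes. With the minimum in both libraries and the GC trend kept, the falls numbered 13 of 67 and 6 of 53, beside 448 of 5093 over all genes.

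Protein turnover, splicing and vesicle genes stayed closer to the background. Proteasome genes gave 4 rises and 7 falls among 31 (median 0.21), with PSMD2, a base subunit, 4.70-fold (interval 4.39 to 5.04) higher and the core subunit PSMB3 7.38-fold (interval 5.43 to 10.2) lower. Of the α ring, PSMA5, PSMA3 and PSMA1 were 4.72-fold, 3.90-fold and 2.89-fold lower. Splicing factor genes gave 5 and 9 among 60 (median -0.13), and HNRNPF went from 1249 to 151 normalized counts, 8.29-fold (interval 7.04 to 9.82) lower. SNRPF, a core protein of spliceosomal particles, was 5.98-fold lower, and the regulator SRSF1 4.02-fold. Lysosome and autophagy genes gave 4 and 8 among 47 (median 0.01): the protease genes CTSL and CTSC went from 1086 to 97.1 and from 326 to 79.8, 11.2-fold and 4.08-fold lower. NPC2, which hands over cholesterol, and GABARAPL1, of autophagosomes, were 4.77-fold and 4.75-fold higher. For coat and vesicle transport genes the counts were 2 and 6 among 42 (median -0.15), with the COPII coat genes SEC23A and SEC24C 2.73-fold and 2.75-fold lower. Cytosolic chaperone genes gave 5 and 5 among 31 (median 0.04). The inducible heat shock genes HSPA1A and HSPA1B, which are near-identical copies, were 4.01-fold and 3.62-fold lower and their cofactor BAG3 3.90-fold, while the small heat shock gene HSPB1 went from 6030.5 to 25120, 4.17-fold (interval 4.04 to 4.29) higher.

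Lipid synthesis lists differed from each other. Of 24 cholesterol synthesis genes 7 fell and 0 rose, with a median log2 FC of -0.42, and 3 of 20 fell with the minimum in both libraries. IDI1, which isomerizes an isoprenoid precursor, went from 546 to 97.1 normalized counts, 5.62-fold (interval 4.55 to 7.001) lower. HMGCS1 and CYP51A1 were 3.44-fold and 4.12-fold lower. SQLE, a later enzyme, was at 1088 and 1492. Fatty acid synthesis genes gave 2 rises and 3 falls among 16 (median -0.41), with the desaturase SCD 2.51-fold (interval 2.40 to 2.62) lower and the acyltransferase GPAM 6.04-fold (interval 4.58 to 8.08) higher.

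Of 35 genes of ATF4 and amino acid synthesis, 9 fell and 2 rose (median -0.29), or 6 and 2 of 31 with the minimum in both libraries. ALDH18A1, which starts proline synthesis, was 13.4-fold (interval 8.12 to 23.5) lower, but PYCR1, which ends it, was 2.07-fold (interval 1.85 to 2.31) higher, but only 0.46 on the log2 FC scale with the GC trend removed. PSAT1, of serine synthesis, was 5.22-fold (interval 4.36 to 6.29) lower, and SHMT1, of glycine synthesis, 3.73-fold (interval 2.86 to 4.91). CEBPB, a transcription factor of the stress and acute phase response, went from 1034 to 228 normalized counts, 4.54-fold (interval 3.94 to 5.24) lower. Of 33 ER chaperone and unfolded protein response genes 10 fell and 1 rose (median -0.22), or 8 and 1 of 30 with the minimum in both libraries. The transcription factor XBP1 went from 715 to 173 normalized counts and its target DNAJB9 from 131 to 9.98, 4.13-fold and 13.1-fold lower. SEC61B, of the translocation channel, and MANF, a secreted ER stress protein, were 6.75-fold and 3.95-fold lower. HSPA5, the main ER chaperone BiP, went from 5543 to 12564, 2.27-fold (interval 2.19 to 2.34) higher, with 0.98 on the log2 FC scale under scaling by total counts. Glycolysis genes gave 4 rises and 1 fall among 19 (median 0.38). HK1 and PKM, the enzymes at the start and the end of the pathway, and the glucose carrier SLC2A3 were 2.19-fold, 2.28-fold and 2.10-fold higher. PFKP, the platelet-type phosphofructokinase, had a log2 FC of 1.28, or 0.93 with the GC trend removed, and PFKFB3, which makes an activator of this enzyme, was 2.19-fold lower. HK1, PKM, SLC2A3 and PFKFB3 each lay under the FC limit with the GC trend of the last 500 bases removed.

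Cell cycle genes differed in both directions. DNA replication genes gave 7 rises and 4 falls among 39 (median 0.42), and mitosis genes 7 and 4 among 40 (median 0.25). PCNA, the sliding clamp, was 2.72-fold (interval 2.40 to 3.08) lower and MCM2, of the replicative helicase, 2.67-fold (interval 2.18 to 3.30). MCM5, another helicase subunit, was 3.49-fold (interval 2.88 to 4.25) higher, but under 2-fold once the trend over the GC content of the last 500 bases was removed. TOP2A, which untangles chromosomes, went from 7088 to 16731 normalized counts, 2.36-fold (interval 2.29 to 2.43) higher, and CENPA, the centromeric histone, was 4.47-fold (interval 2.99 to 6.84) lower. The list of CDK inhibitors and D-type cyclins also held related genes such as CDK2 and E2F4. Of its 10 genes that reached the minimum 3 rose and 2 fell (median 0.37). With the minimum in both libraries, 3 rose and 0 fell among 7. The inhibitor CDKN1A went from 710.2 to 2064, 2.91-fold (interval 2.66 to 3.18) higher, while its relative CDKN1B was 2.86-fold (interval 2.26 to 3.63) lower. CDK6 and CDK2 were 2.33-fold and 2.49-fold higher, and the repressor E2F4 3.36-fold lower. Of 22 p53 target genes 7 rose and 2 fell (median 0.54), or 7 and 1 of 19 with the minimum in both libraries. TP53I3, DDB2, SFN and BAX were 4.58-fold, 4.32-fold, 4.27-fold and 2.76-fold higher, though BAX had a log2 FC of 0.97 with the GC trend removed, whereas GDF15, also in this list, fell and MDM2 was at 513 and 495. Clustered histone genes gave 0 rises and 1 fall among 6 (median -0.03), and the KRAB and other zinc finger genes 0 rises and 0 falls among 6 (median 0.51).

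Of 13 metallothionein genes 2 reached the minimum, and both rose. MT2A, which binds zinc and copper, went from 4245 to 23427 normalized counts, 5.52-fold (interval 5.33 to 5.71) higher, and MT1X went from 90.4 to 724, 8.01-fold (interval 6.34 to 10.2) higher. These genes are known to be switched on through the metal response element by the zinc sensor MTF1, and the element is shown as it stands upstream of each. The form TGCACNC was searched on both strands, was found in 618 of 5506 promoters of tested genes (11.2%), and is in capitals.
MT2A: cggggctttTGCACTCgtcccggctctt
MT1X: agcaggggcGGGTGCAaggacgaggcgg
The MT2A stretch lies at chr16:56608521-56608548 on the plus strand, with its match starting 54 bases before the gene start, and the MT1X stretch at chr16:56682383-56682410 on the same strand, 78 bases before the start. The MT1X match reads as the reverse complement. Over the whole windows, MT2A held 6 such matches and MT1X held 2.

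Other families were mixed. Of 7 S100 genes, which encode small calcium-binding proteins, 3 rose and 3 fell (median 0.15), or 3 and 2 of 6 with the minimum in both libraries. S100A6 and S100A4 went from 11716 to 1525 and from 4047 to 1276 normalized counts, 7.68-fold and 3.17-fold lower, and S100A11 and S100A16 were 3.07-fold and 3.95-fold higher. Ion transport genes of airway epithelium gave 6 rises and 6 falls among 17 (median -0.10): CA12, a carbonic anhydrase, went from 5099 to 533, 9.57-fold (interval 8.78 to 10.5) lower, and the nucleotide receptor P2RY2 went from 30.1 to 334, 11.1-fold (interval 7.44 to 17.2) higher, as was the potassium channel gene KCNMA1 at 5.24-fold (interval 3.92 to 7.10). SLC12A2, the chloride loader of the basolateral membrane, was 4.44-fold (interval 3.92 to 5.05) lower. Among the 10 ion transport genes that reached the minimum in both libraries, 2 rose and 3 fell.

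WNT and Notch genes gave 9 rises and 8 falls among 23 (median 0.06), or 5 and 2 of the 11 that reached the minimum in both libraries. DKK1, a secreted WNT antagonist, went from 1309 to 32.7 normalized counts, 40.1-fold (interval 28.8 to 57.5) lower. RNF43 and ZNRF3, which remove WNT receptors from the surface, were 12.2-fold (interval 7.28 to 21.9) and 11.6-fold (interval 8.60 to 15.9) lower, and their partner LGR4 3.42-fold (interval 2.94 to 3.98). The WNT receptor FZD7 was 6.88-fold (interval 4.39 to 11.3) lower. The ligand WNT5B went from 15.1 to 301, a log2 FC of 4.23, and the Notch modifier LFNG was 6.86-fold (interval 4.87 to 9.92) higher. Ephrin, semaphorin and axon guidance genes gave 4 rises and 5 falls among 19 (median -0.08), or 3 and 1 of 11 with the minimum in both libraries. The ephrin receptors diverged, since EPHA2 went from 336 to 56.3, 5.97-fold (interval 4.53 to 7.99) lower, and EPHB2 went from 334 to 2099, 6.29-fold (interval 5.56 to 7.14) higher. So did the semaphorins, with SEMA3C 4.74-fold higher and SEMA4B 8.30-fold lower, and NTN4, a laminin-related netrin, was 14.05-fold (interval 7.36 to 30.1) lower.

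Transcription targets of YAP and TEAD gave 7 rises and 7 falls among 26 (median 0.30), or 3 and 2 of 15 with the minimum in both libraries. The best known pair moved apart. CTGF (CCN2) went from 83.4 to 792 normalized counts, 9.49-fold (interval 7.46 to 12.2) higher, and CYR61 (CCN1) went from 139 to 16.3, 8.51-fold (interval 5.16 to 14.9) lower. VGLL3, a TEAD cofactor, was 6.41-fold (interval 4.73 to 8.88) higher and AJUBA, a LIM protein of adherens junctions, 6.70-fold (interval 4.76 to 9.65) lower. AP-1 and immediate early genes gave 6 and 5 among 17 (median 0.03), or 6 and 2 of 13 with the minimum in both libraries. JUN and JUNB were 3.14-fold (interval 2.72 to 3.62) and 2.19-fold (interval 1.94 to 2.47) higher, of which JUNB had a log2 FC of only 0.41 with the GC trend removed. DUSP6 and DUSP4, phosphatases that switch off MAP kinases, were 8.39-fold (interval 5.62 to 12.98) and 2.36-fold (interval 2.11 to 2.64) lower. KLF10, known as an early gene of TGF-β signaling, was 3.80-fold (interval 2.63 to 5.58) lower at this time.

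**Figure D3:**
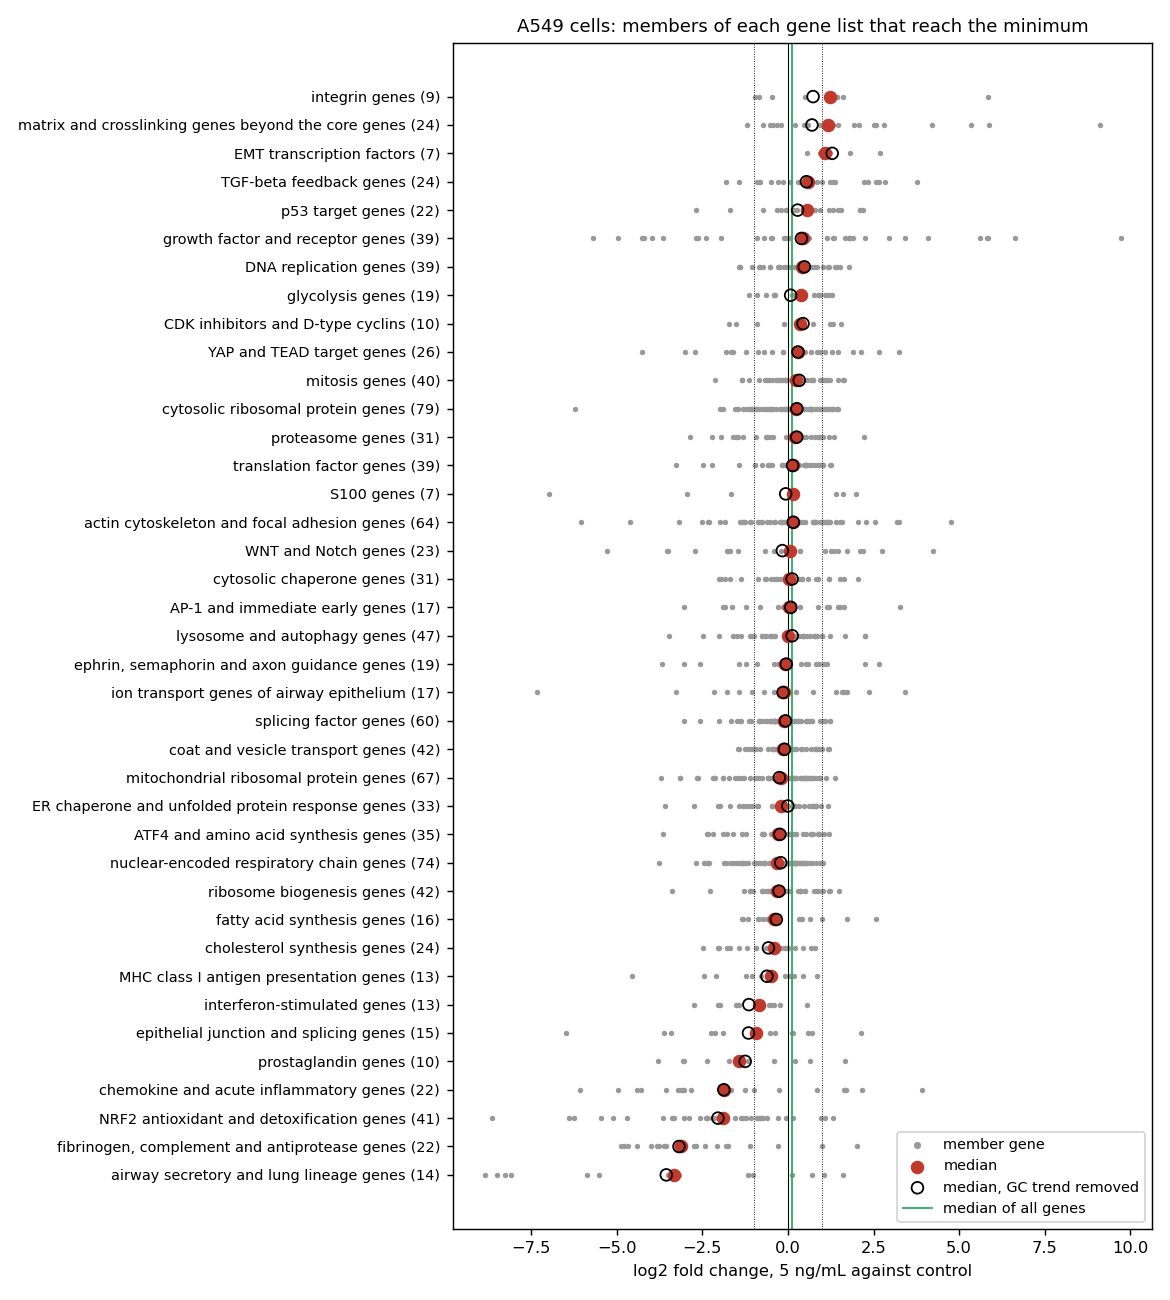
Log2 FC at 5 ng/mL against control for the gene lists with at least 7 members that reached the minimum, whose number is given after each name. Grey points are member genes, red points the medians, open circles the medians with the GC trend removed, and dotted lines a 2-fold difference; the lowest medians are at -3.33, -3.12, -1.90 and -1.85.

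Fold change rose with the GC content of the transcript. GC content, taken from the longest annotated transcript of each gene, was known for 9795 of 10263 genes with a mean ND of at least 5. In 10 bins of equal gene number, the median log2 FC went from -0.24 in the lowest bin (29.6 to 38.6% GC) to 0.66 in the highest (61.3 to 74.5% GC). The share of higher DEGs went from 3.67 to 25.3% and that of lower DEGs from 13.3 to 4.39%. At 1 ng/mL, against the same control library, the medians of these bins were -0.17 and 0.65. In BEAS-2B cells at 5 ng/mL, against their own control, they were -0.05 and 0.19.

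The rank correlation between log2 FC and transcript GC content was 0.30 over the 9795 genes, and 0.31 for the GC content of the last 500 bases, where the reads of this library type lie. Genes of 1 library pair share depth and scaling, so this is a description. For transcript length the correlation was -0.0023. In the 10 bins of length the median log2 FC lay between -0.07 and 0.12. What part of the trend lies in the libraries and what part in the cells was not tested, and with 1 library a side these cannot be told apart.

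**Figure D4:**
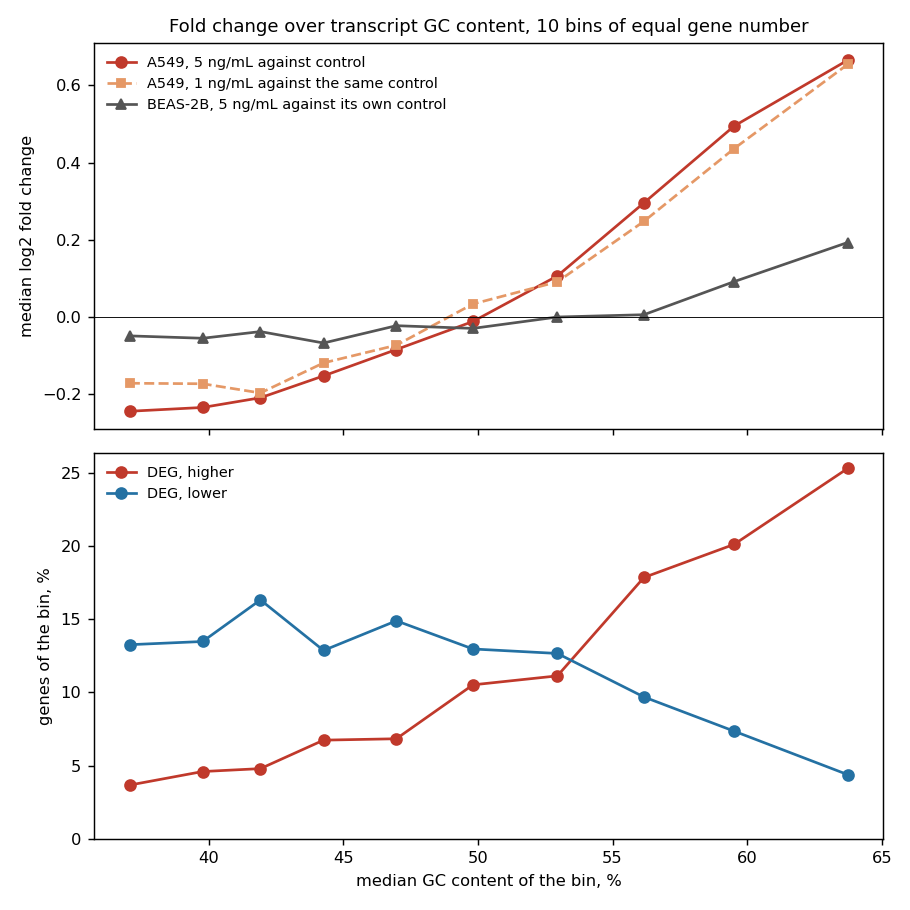
Top, median log2 FC (y axis) over the median GC content in percent (x axis) in 10 bins of equal gene number, for A549 cells at 5 ng/mL, at 1 ng/mL against the same control, and for BEAS-2B cells at 5 ng/mL against their own control. Bottom, percent of the genes in each bin that were DEGs in A549 cells at 5 ng/mL; the higher DEGs climb from 3.67 to 25.3% and the lower DEGs drop to 4.39%.

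The medians of 13 lists changed sign in at least 1 alternative, namely the cytosolic chaperone, translation factor, mitochondrial ribosomal, lysosome, actin, YAP, AP-1, ephrin, WNT, S100, splicing, ribosome biogenesis and coat lists. No direction is given for the medians of these lists. Overlapping genes add a further limit, since the use of strand in the counting is not given in the sources used here. Genes named above that share their locus with another counted gene include CENPA with SLC35F6, ERAP1 with CAST, RNF43 with SUPT4H1 and GPX2 with CHURC1, and reads of such pairs may not be told apart.

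With the median log2 FC of 20 GC bins subtracted, 869 genes lay at or above a 2-fold rise and 1200 at or below a 2-fold fall, among 6836 genes with a known GC content. Of 1100 higher DEGs with a GC value 748 still lay at or above 2-fold, and of 1173 lower DEGs 1063 still lay at or below it. Falls in 3 of the lists moved little: the NRF2 list had 28 falls in place of 27, the plasma protein list 18 in place of 19, and the chemokine list 15 in place of 15. Before the correction, only 18, 1 and 4 of these falls had the minimum in both libraries. The list medians of -1.90, -3.12 and -1.85 were also large beside the bin medians, so that the counts could move little. All 20 genes with the largest GC-corrected rises and falls were also among the 30 largest uncorrected ones. This overlap was nearly fixed in advance and is no check. The bin medians, -0.24 to 0.66 over 10 bins, were small beside the log2 FC of these genes, such as 5.80 for INHBA. The correction mattered more for the rises, where the integrin median went from 1.22 to 0.73 and the glycolysis median from 0.38 to 0.08.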

How the data were processed

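Libraries were made with a 3′ mRNA kit (QuantSeq) from 1 culture condition each. The deposited values are raw read counts per gene symbol made by the authors. Bowtie2, bedtools and hg19 are named in the submitters' processing notes, versions and strand setting are not given in the sources used here, and the study's methods name the spreadsheet tool ExDEGA for its own analysis. All 6 libraries were scaled with TMM factors (edgeR 4.0.16, R 4.3.3), normalized counts being count / effective library size × the mean effective size, and log2 FC was taken with a pseudocount of 1. Further steps used Python 3.11.15 with pandas 2.3.3 and scipy 1.17.1. Samples were grouped from their labels. A minimum of ND 7 corresponded to 110 raw counts in the control and 140 at 5 ng/mL, which bounds the precision. With 1 library per condition, edgeR served for scaling only, and lists are described by counts and medians.

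GC content came from the longest GENCODE 29 transcript per symbol (GRCh38), matched by symbol for 6836 of 7115 genes (96.1%). The GC trend was removed by subtracting the median log2 FC of 20 bins, set on genes with a mean ND of at least 5. Promoter sequences were taken from RefSeq (GRCh38.p14), a build other than that of the reads, and no read position was used. The computation of fold change, calls and GC trend was tested on simulated data.

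Named genes were the 15 largest rises and falls by log2 FC, the 8 DEGs in each direction with the largest change in CPM, the 10 largest rises and falls after removing the GC trend, and up to 6 DEGs per list. These gave 250 genes. A further 123 were named for their role or as overlapping partners after their values were seen. Some of these genes are not reported here. The 8 core matrix genes of the study were not described. The comparison, the 43 lists and the rule were chosen with earlier results of these data known. Alternatives were DESeq2 1.42.0 size factors, total counts, upper quartile and 2-library TMM scaling, a filter of 10 counts, other pseudocounts and FC limits, thinning, log2(CPM + 1), summed entries, removal of the GC trend and other minimums.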

Additional observations from a re-analysis of the deposited data

Results flagged for a closer look

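Of the DEGs of A549 cells at 5 ng/mL, 13 were also DEGs in the opposite direction in BEAS-2B cells at the same dose, against the control library of each line. The difference between the lines was not tested, since each condition was 1 library. Of the 13 genes 7 were higher and 6 lower in A549 cells.

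CDH4, which encodes R-cadherin, had a log2 FC of 3.23 in the A549 line and -1.98 in the BEAS-2B line. FSTL1, a secreted follistatin-like glycoprotein, had 1.91 and -1.01. PTGES, the prostaglandin E synthase, had 1.68 and -2.06. SDC4, the heparan sulfate proteoglycan syndecan 4 of focal adhesions, had 1.46 and -1.77. ITGB4, the integrin subunit of hemidesmosomes, had 1.22 and -2.10. MVP, the major vault protein, had 1.09 and -1.73, and GXYLT2, a xylosyltransferase of Notch receptors, had 1.07 and -1.32. These genes were higher in the treated A549 library and lower in the treated BEAS-2B library. In A549 cells 4 of these calls were lost in an alternative, with the log2 FC as low as 0.52 for MVP, 0.87 for GXYLT2, 0.91 for SDC4 and 0.31 for ITGB4.

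GDF15, a stress-induced cytokine of the TGF-β superfamily, had a log2 FC of -2.70 in the A549 line and 2.04 in the BEAS-2B line. SLC6A6, the taurine transporter, had -1.79 and 2.92. HES1, a transcriptional repressor downstream of Notch, had -1.70 and 1.29. IRF2BP2, a transcriptional cofactor, had -1.58 and 1.03. BDKRB2, the bradykinin B2 receptor, had -1.40 and 1.56, and EDARADD, the adaptor of the ectodysplasin receptor, had -1.37 and 1.94. These were lower in the treated A549 library and higher in the treated BEAS-2B library.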

How the results depend on the processing

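No paired analysis was possible because each condition had 1 library, and for the same reason no replicate could be left out. The 1146 higher DEGs became 446 on log2(CPM + 1) values, which raise the minimum, 651 with the minimum required in both libraries, 2126 at an FC of at least 1.5 and 420 at an FC of at least 3. The 1220 lower DEGs became 290, 448, 1865 and 670 under these settings, and 757 when the mean ND of both libraries had to reach 7, a setting chosen after seeing the data. In the lowest GC bin the median log2 FC of -0.24 became -0.45 with scaling by total counts and -0.16 on log2(CPM + 1) values, and in the highest GC bin 0.66 became 0.46 and 0.75. Higher DEGs made up 60.6% of DEGs on log2(CPM + 1) values and 59.2% with the minimum in both libraries, against 48.4% as reported. Other scalings, a filter on low counts, pseudocounts of 0.1 and 5, thinning to the smaller total and summing entries of a symbol kept each count within 1.5 times. Of 373 named genes, 51 past the FC limit lay under 2-fold in at least 1 alternative. A sign change occurred in 6, CNFN, DSP, ERBB2, IGF1R, KEAP1 and MDM2, of which none was a DEG. Genes with few reads carry wide counting intervals, and differences among genes near 127 normalized counts rest on about 110 raw counts in the control and 140 at 5 ng/mL.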

Other observations

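Long noncoding RNAs were not among the lists of the report. Of 82 annotated as long noncoding that reached the minimum, 18 were higher and 17 lower at 5 ng/mL (22.0% and 20.7%), with a median log2 FC of 0.08. Pseudogene entries gave 7 higher and 9 lower among 58, and protein-coding genes 1075 and 1146 among 6692. The genes named here were chosen after their values were seen.

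MEG3, an imprinted noncoding RNA of the DLK1 locus, had 132 counts in the control and 1608 at 5 ng/mL, a log2 FC of 3.25. KIRREL3-AS2, an antisense transcript, had 5 and 273 counts, a log2 FC of 5.19. NKILA, an antisense RNA known as an NF-κB inhibitor, had 34 and 591 counts, but it overlaps the DEG PMEPA1 on the opposite strand. TGFB2-AS1 and LUCAT1 had log2 FC values of 1.81 and 1.69. All 5 were higher in the treated library.

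On the lower side, GACAT2 had 117 counts in the control and 3 at 5 ng/mL, and LINC00173 had 148 and 12. Host genes of small nucleolar RNAs differed in direction. ZFAS1, with 1279 and 294 counts, and SNHG7, with 483 and 100, were lower, as were SNHG5, SNHG6 and SNHG8 with log2 FC values of -1.27, -1.47 and -1.29. SNHG1 was higher with 344 and 945 counts, a log2 FC of 1.10 that was 0.90 under scaling by total counts, and SNHG25 with 2875 and 7957, a log2 FC of 1.12 that became 0.53 with the GC trend removed.

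At 1 ng/mL, against the same control library, 678 of the 1146 higher DEGs and 799 of the 1220 lower DEGs also differed by 2-fold or more in the same direction. GACAT2 had 7 counts at that dose, MEG3 1571 and KIRREL3-AS2 271.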
